A study of Mus with 5 samples.

Results

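The transcripts of 5 genes of glycolysis and the hypoxia response, *Slc2a1*, *Pgk1*, *Ldha*, *Pdk1* and *Hif1a*, were examined in E14.5 mouse hearts with widespread myocardial *Bmp2* expression. The genes were chosen by their Ensembl identifiers for their place in the pathway, with earlier results of these data known. All 5 were present in the deposited table of 12857 genes. RNA came from ventricles and valves of *Nkx2.5Cre/+;Bmp2tg/+* embryos (3 pools, given in the labels as Nkx2.5CRE;Bmp2) and of embryos labelled WT (2 pools), with 4 embryos in each pool. In the transgenic embryos, Cre made under the control of *Nkx2.5*, a gene of the developing myocardium, removes a stop cassette so that the CAG promoter drives a *Bmp2* cDNA with eGFP from the *Rosa26* locus. The labels give the transgenic pools the Cre allele and the transgene and WT pools neither, and the effects of both alleles cannot then be told apart. In the cross that the study describes for these embryos, of females homozygous for the Cre allele with transgenic males, littermates without the transgene also carry the Cre allele, and whether the WT pools were such littermates is not given in the sources used here. The authors made 3 pools of each genotype and excluded 1 WT pool that lay apart from the others in their clustering, and it was not analysed here. Each pool averages several embryos, so differences among embryos were not measured, and in whole tissue a change in the number of cells of a type and a change in RNA per cell cannot be told apart.

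Glycolysis splits glucose into pyruvate in the cytosol. The embryonic heart, which develops in low oxygen, is known for drawing much of its energy from it, whereas the mature heart burns mainly fatty acids. *Slc2a1* encodes Glut1, the transporter that admits glucose into the cell, *Pgk1* encodes the kinase of an ATP-forming step of glycolysis, and *Ldha* encodes the lactate dehydrogenase subunit that favours conversion of pyruvate to lactate. *Pdk1* encodes a kinase that inhibits pyruvate dehydrogenase and so keeps pyruvate out of the mitochondrion. *Hif1a* encodes the subunit of hypoxia-inducible factor 1 that is destroyed when oxygen is plentiful, and all 4 of the other genes are known targets of this factor. Hif1a is controlled largely through the stability of its protein, which RNA-seq does not measure.

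*Slc2a1* was higher in *Nkx2.5Cre/+;Bmp2tg/+* hearts, by 20.3%, and was the only one of the 5 genes to pass the test. Its call was close to the threshold and did not hold in all settings. *Ldha* and *Pgk1* were at 1.14 and 1.10 times their WT means, with the lowest transgenic pool above the higher WT pool, but neither passed. *Hif1a* and *Pdk1* were at 1.04 and 1.01 times their WT means, with overlapping pools. Levels are given as reads of a gene per 1000000 reads (CPM), scaled by the authors. limma was run on log2(CPM + 0.5), at a threshold of 0.05 on p-values corrected for all 12857 genes tested (Benjamini-Hochberg). By this rule 1 of 5 genes was called, and it was higher. This was *Slc2a1*, with an adjusted p of 0.0415 by limma. It was not called by limma without transgenic pool 1 (0.0858) or pool 2 (0.115), or without the variance trend (0.29). Of all genes, 2.82% were called, 1.22% higher and 1.59% lower. Tests on the recovered reads called 1.78% of all genes (DESeq2), 3.1% (edgeR quasi-likelihood) and 3.75% (edgeR exact), and each of the 3 called 1 or 2 of the 5 genes. All 5 genes had more than 1 CPM in every library, so the filter on low values removed none of them. CPM is not corrected for transcript length, so levels are compared between pools for each gene and not between genes.

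**Figure D1:**
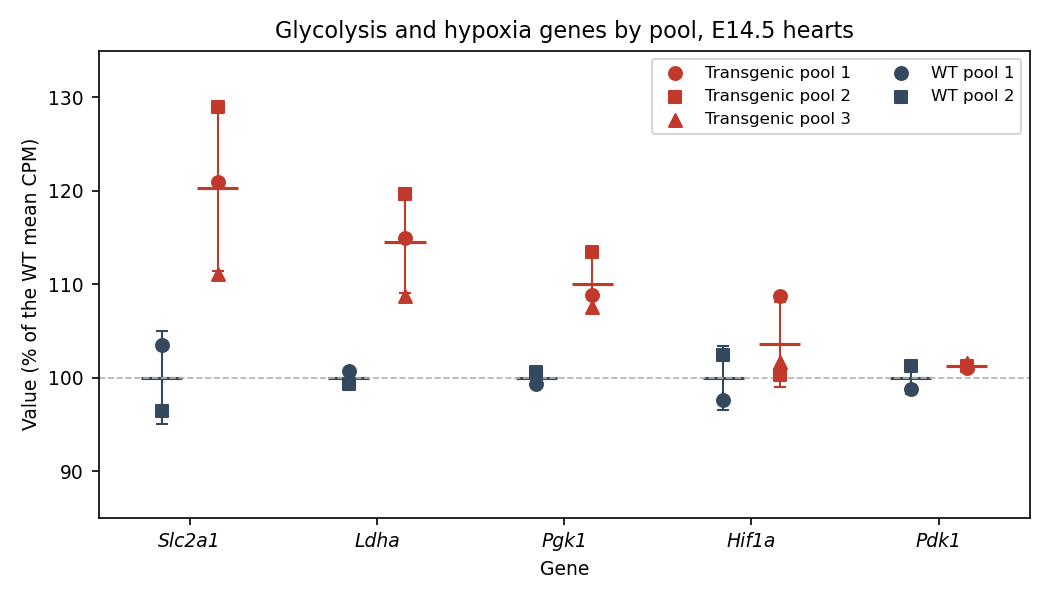
CPM of *Slc2a1*, *Ldha*, *Pgk1*, *Hif1a* and *Pdk1* in each pool, as a percentage of the gene's WT mean (vertical axis, which starts above 0); red symbols are the 3 transgenic pools and dark symbols the 2 WT pools, with horizontal lines at the means and bars of 1 SD. Transgenic pools of *Slc2a1* lie at 111%, 121% and 129% of the WT mean, while those of *Pdk1* lie between 101.0% and 101.5%.

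The recovered reads were between 7427905 and 10564780 per library, and each of the 5 genes had at least 1265 reads in every pool. *Bmp2*, which checks the labels, was at 23.0, 27.1 and 23.3 CPM in transgenic pools 1, 2 and 3 and at 14.1 and 10.2 CPM in WT pools 1 and 2, values that sum transgenic and endogenous transcripts. Both WT pools were thus below all 3 transgenic pools, as their labels require. Few cell type markers could be identified, because the deposited identifiers are paired with symbols mainly for genes that the authors listed as changed in these same hearts. The paired markers are therefore a selection of changed genes and not evidence about a cell type as a whole. Of 10 cardiomyocyte markers only *Ryr2*, the calcium release channel of the sarcoplasmic reticulum, was paired. It was present in all 5 libraries, at 425 to 480 CPM in transgenic and at 548 and 556 CPM in WT pools, and was called lower (adjusted p = 0.0175 by limma). Of 6 atrial markers only *Myl7*, an atrial myosin light chain, was paired, at 653, 869 and 617 CPM in the transgenic libraries against 384 and 373 CPM in WT. *Myl7* was called higher (log2 fold change 0.90, adjusted p = 0.000166 by limma), although the paper states that the atria were removed. Of 7 endothelial markers, *Cdh5*, *Kdr*, *Tie1* and *Plvap* were paired, and their summed level was 545, 462 and 548 CPM in the transgenic libraries against 668 and 659 CPM in WT. Of 9 epicardial and fibroblast markers, *Tbx18*, *Pdgfra* and *Dcn* were paired, with a summed level of 344 to 369 CPM in transgenic against 377 to 402 CPM in WT libraries, and of these *Tbx18* was called higher and *Pdgfra* lower. Neither the 9 red cell nor the 6 cushion mesenchyme markers had a pair, and the part of any of these cell types in the results that follow was not tested.

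Glucose uptake was represented by *Slc2a1* (ENSMUSG00000028645), which RefSeq places on chromosome 4 of GRCm38.p6, 119108745 to 119137330. It was at 213, 227 and 195 CPM in transgenic pools 1, 2 and 3 and at 182 and 170 CPM in WT pools 1 and 2, from 1265 to 2223 reads per pool. The lowest transgenic pool, pool 3, was above both WT pools. The WT mean of 175.8 ± 8.76 CPM (SD, n = 2 pools) compares with 211.5 ± 15.7 CPM (SD, n = 3 pools) in transgenic hearts, so that *Slc2a1* rose by 0.26 on the log2 scale (95% interval 0.12 to 0.40, standard error 0.07, adjusted p = 0.0415 by limma). Among all genes, 86.2% had a smaller change in size. The spread between pools was wider than read counting alone gives, with an SD of 15.7 CPM against 4.79 CPM for counting error in the transgenic pools and 8.76 against 4.58 CPM in the WT pools. The call was lost without 4 of the 5 pools. Its limma adjusted p was 0.0858 without transgenic pool 1, 0.115 without pool 2, 0.204 without WT pool 1 and 0.378 without WT pool 2, and only without transgenic pool 3 did it stay below the threshold (0.0118). *Slc2a1* is in the authors' list of changed genes, which was made from these same libraries and is not independent evidence.

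The glycolytic enzyme genes *Ldha* and *Pgk1* were higher in every transgenic pool but did not pass the test. *Ldha* (ENSMUSG00000063229, chromosome 7, 46842274 to 46855627) was at 1544, 1607 and 1461 CPM in transgenic pools 1, 2 and 3 and at 1352 and 1334 CPM in WT pools 1 and 2. The WT pools were close to each other, 0.02 apart on the log2 scale, and the gap from the higher WT pool to the lowest transgenic pool was 0.11. Its mean was 1538 ± 73.3 CPM (SD, n = 3 pools) against 1343 ± 12.8 CPM (SD, n = 2 pools), which is a log2 difference of 0.19 (95% interval 0.06 to 0.33, standard error 0.06, adjusted p = 0.106 by limma). The call depended on the tool and on transgenic pool 3. DESeq2 on the recovered reads called *Ldha* (adjusted p = 0.0299), as did limma without transgenic pool 3 (adjusted p = 0.0388), while edgeR's quasi-likelihood and exact tests did not (adjusted p-values of 0.13 and 0.0948).

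*Pgk1* (ENSMUSG00000062070, chromosome X, 106187100 to 106203699) was at 1263, 1316 and 1248 CPM in transgenic pools 1, 2 and 3 and at 1153 and 1167 CPM in WT pools 1 and 2. Again the lowest transgenic pool was above both WT pools, by 0.10 on the log2 scale. The means were 1276 ± 35.8 CPM (SD, n = 3 pools) and 1160 ± 10.4 CPM (SD, n = 2 pools), which is a log2 difference of 0.14 (95% interval 0.01 to 0.26, standard error 0.06, adjusted p = 0.226 by limma). *Pgk1* was not called in any of the 17 other settings tried, with adjusted p-values from 0.153 to 0.562. RefSeq names 3 pseudogenes or related sequences of *Pgk1* and 3 pseudogenes of *Ldha*, and reads that match several copies are divided among them by estimate in RSEM, which makes the values of both genes less certain.

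For 3 of the 5 genes, *Slc2a1*, *Ldha* and *Pgk1*, the transgenic pools were thus separate from and above the WT pools, which was also the case for 17.7% of all genes, while 18% of all genes had them separate and below. In each of these 3 genes transgenic pool 2 was the highest and pool 3 the lowest. That order of the transgenic pools was found in 18.5% of all genes and in 28.8% of the genes whose transgenic pools were all above both WT pools. *Myl7* had the same order, and *Bmp2* was also highest in pool 2. The endothelial markers were at their lowest summed level in that pool (462 CPM). *Ryr2* (425 CPM) and the summed epicardial and fibroblast markers (344 CPM) were lowest there too, although *Tbx18* by itself was slightly highest there (88.1 CPM). The part of these markers in the differences of *Slc2a1*, *Ldha* and *Pgk1* was not tested. Without transgenic pool 2, the log2 fold changes were 0.21 for *Slc2a1*, 0.16 for *Ldha* and 0.11 for *Pgk1*.

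At the entry of pyruvate into the mitochondrion, *Pdk1* was measured with little spread. *Pdk1* (ENSMUSG00000006494, chromosome 2, 71873215 to 71903858) was at 306.7, 307.4 and 308.4 CPM in transgenic pools 1, 2 and 3 and at 300.0 and 307.3 CPM in WT pools 1 and 2. WT pool 2 lay among the transgenic pools, and only WT pool 1 was lower. The means of 307.5 ± 0.849 CPM (SD, n = 3 pools) and 303.7 ± 5.17 CPM (SD, n = 2 pools) gave a log2 fold change of 0.02 (adjusted p = 0.898 by limma, standard error 0.05). The 95% interval, -0.09 to 0.13, corresponds to between 0.938 and 1.09 times the WT level. The SD of 0.849 CPM among transgenic pools was below the counting error of 5.79 CPM. With the libraries rescaled to the same total, the sign of the difference turned (-0.000942). The symbol *Pdk1* is also an older name of *Pdpk1*, a different kinase, and the values here are those of the identifier given.

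The oxygen-regulated subunit gene *Hif1a* (ENSMUSG00000021109, chromosome 12, 73901324 to 73947554) was at 371, 342 and 347 CPM in transgenic pools 1, 2 and 3 and at 332 and 349 CPM in WT pools 1 and 2. Transgenic pool 1 was the highest of the 5 libraries, whereas pools 2 and 3 were between the WT pools. The means were 353.0 ± 15.5 CPM (SD, n = 3 pools) and 340.8 ± 11.7 CPM (SD, n = 2 pools). The log2 fold change was 0.05 (95% interval -0.07 to 0.17, standard error 0.06, adjusted p = 0.692 by limma), so that a mean between 0.953 and 1.13 times the WT level lies within the interval. Without transgenic pool 1 or without WT pool 1 this value was 0.015, and without WT pool 2 it was 0.085. *Hif1a* was not called in any of the 17 other settings (adjusted p-values from 0.62 to 0.955).

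**Figure D2:**
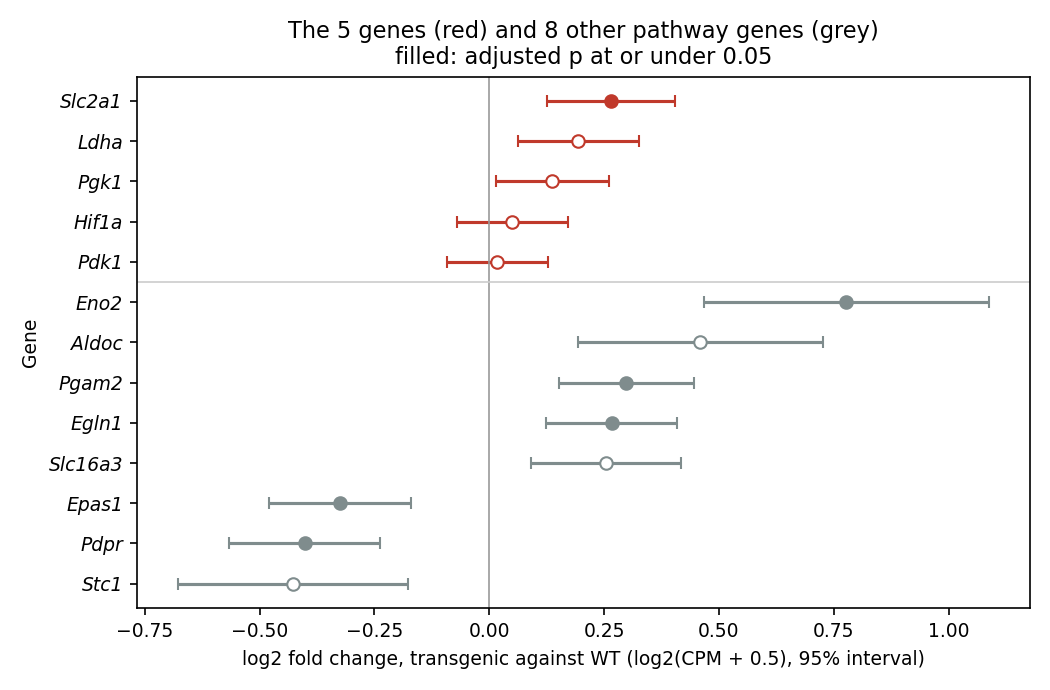
log2 fold change of transgenic against WT hearts (horizontal axis, on the log2(CPM + 0.5) scale) with limma's 95% interval for the 5 genes in red and for 8 further pathway genes in grey; filled points passed the adjusted p threshold. Among the red points only *Slc2a1* (0.26) is filled, and the intervals of *Hif1a* and *Pdk1* span 0.

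Ratios between 2 of the genes within a library do not depend on how libraries were scaled, and were compared for all 10 pairs. The ratio of *Slc2a1* to *Pdk1* was 0.693, 0.737 and 0.633 in transgenic pools 1, 2 and 3 and 0.606 and 0.552 in WT pools 1 and 2, a log2 difference of 0.25. The ratio of *Ldha* to *Pdk1* was 5.04, 5.23 and 4.74 in the transgenic libraries against 4.51 and 4.34 in WT, a log2 difference of 0.18. For both, as for the ratio of *Pgk1* to *Pdk1* (a log2 difference of 0.12) and those of *Slc2a1* and *Ldha* to *Hif1a* (0.21 and 0.14), the transgenic pools did not overlap with the WT pools. The log2 difference of the ratio of *Slc2a1* to *Hif1a* was 0.14 without transgenic pool 2 and 0.13 without WT pool 2, and that of *Ldha* to *Hif1a* was 0.088 without transgenic pool 2. Among *Slc2a1*, *Ldha* and *Pgk1* themselves the pools overlapped for every ratio, so a difference in response between these 3 genes was not resolved. In total the pools were separate for 5 of the 10 ratios, while 34.5% of all pairs of genes had separate pools. All 5 set *Slc2a1*, *Ldha* or *Pgk1*, whose own pools were separate, over *Pdk1* or *Hif1a*, whose pools overlapped. They are therefore not independent of the results for single genes. In a two-sided exact permutation test of 3 against 2 pools the smallest p possible is 0.2, which was reached by these 5 ratios (0.4 when adjusted over the 10 pairs).

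**Figure D3:**
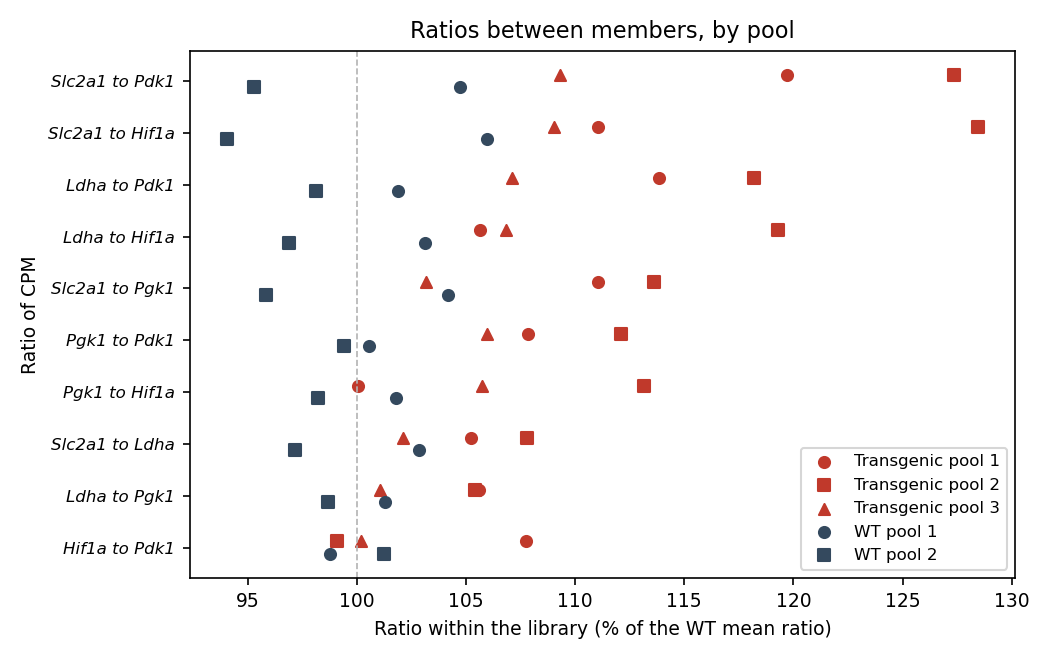
Ratios of CPM between 2 of the genes within each library, as a percentage of the mean ratio of the WT pools (horizontal axis), with the 3 transgenic pools in red and the 2 WT pools in dark. The 3 ratios to *Pdk1* of *Slc2a1*, *Ldha* and *Pgk1* have all red symbols to the right of the dark ones, and the 3 ratios among those genes overlap.

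Of 64 other genes of the pathway, only 8 could be paired with an identifier, all through the authors' list of genes changed in these hearts. They are therefore a selection of changed genes and not evidence about the pathway as a whole. The other 56, among them most glycolytic enzymes, were not analysed here. Of the 8 genes, 3 were called higher, 2 were called lower and 3 were not called, and for all 8 the pools did not overlap, as was the case for 35.7% of all genes. Without the variance trend in limma, 0 of the 8 were called, with adjusted p-values from 0.145 to 0.353.

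Of 19 glycolytic enzyme genes, the paired ones besides *Ldha* and *Pgk1* were *Eno2*, *Pgam2* and *Aldoc*. *Eno2*, the enolase best known from neurons, was at 13.4, 18.6 and 16.1 CPM in transgenic pools 1, 2 and 3 and at 9.73 and 8.44 CPM in WT pools 1 and 2, and rose by 0.78 on a log2 scale (adjusted p = 0.00815 by limma, standard error 0.15). Its counts were low, from 63 to 173 reads per pool. *Pgam2*, the muscle phosphoglycerate mutase, was at 250, 276 and 228 CPM and at 205 and 202 CPM, and rose by 0.30 (adjusted p = 0.0287 by limma, standard error 0.07). *Aldoc*, an aldolase, was at 23.4, 27.8 and 20.3 CPM and at 18.1 and 16.1 CPM, 0.46 higher on a log2 scale (adjusted p = 0.0611 by limma). The call of *Eno2* was lost without WT pool 1 or WT pool 2 (limma adjusted p-values of 0.0959 and 0.169). That of *Pgam2* was lost without WT pools 1 and 2 (0.246 and 0.291) and without transgenic pools 1 and 2 (0.0614 and 0.0684), whereas *Aldoc* was called without transgenic pool 3 (0.0186) and in 3 of the 17 other settings in all, with adjusted p-values from 0.00782 to 0.399.

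Of 6 transport genes, only *Slc16a3* was paired besides *Slc2a1*. It encodes Mct4, which exports lactate, and was at 155, 160 and 133 CPM in transgenic pools 1, 2 and 3 and at 132 and 118 CPM in WT pools 1 and 2, 0.25 higher on a log2 scale (adjusted p = 0.0856 by limma, called in 2 of the 17 other settings, with 0.00529 to 0.515 over all of them). Transgenic pool 3 was only slightly above WT pool 1. The 2 settings that called *Slc16a3*, without transgenic pool 3 and with the pool number as a block, gave the same log2 fold change (0.33). For *Aldoc*, *Pgam2*, *Eno2*, *Slc16a3* and *Egln1*, the 5 paired genes that were higher, transgenic pool 2 was the highest pool, as it was for *Slc2a1*, *Ldha* and *Pgk1*. In *Eno2* and *Egln1* the lowest transgenic pool was pool 1 and not pool 3. The share of all genes with pool 2 highest was not determined, so this does not set the pathway genes apart.

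Of 12 genes of pyruvate dehydrogenase and its regulators, *Pdpr* was paired besides *Pdk1*. *Pdpr* encodes the regulatory subunit of the phosphatase that reactivates pyruvate dehydrogenase, the reaction opposite to that of Pdk1. It was at 37.2, 35.9 and 35.0 CPM in transgenic pools 1, 2 and 3 and at 46.8 and 48.7 CPM in WT pools 1 and 2, and fell by 0.40 on a log2 scale (adjusted p = 0.00919 by limma, standard error 0.08). The call was lost without WT pool 1 or WT pool 2 (limma adjusted p-values of 0.133 and 0.167).

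Of 10 genes of hypoxia-inducible factors and oxygen sensing, *Egln1* and *Epas1* were paired besides *Hif1a*. *Egln1* encodes the prolyl hydroxylase Phd2, which marks Hif proteins for destruction when oxygen is present. It was at 150, 173 and 154 CPM in transgenic pools 1, 2 and 3 and at 137 and 127 CPM in WT pools 1 and 2, and rose by 0.27 on a log2 scale (adjusted p = 0.045 by limma, standard error 0.07). *Epas1*, which encodes the Hif2 alpha subunit and is prominent in endothelium, was called lower, with a log2 fold change of -0.32 beside 0.05 for *Hif1a*. The endothelial markers *Kdr*, *Tie1* and *Plvap* were also called lower (log2 fold changes of -0.46, -0.31 and -0.72), and *Cdh5* was not called (-0.25, adjusted p = 0.0563 by limma). All of them were paired through the authors' list of changed genes. The part of endothelial content in the difference of *Epas1* was not tested. Without WT pool 1, WT pool 2 or transgenic pool 2, the limma adjusted p-values were 0.203, 0.388 and 0.128 for *Egln1* and 0.225, 0.224 and 0.0738 for *Epas1*, so that neither was called. DESeq2 called neither (adjusted p-values of 0.0613 and 0.0605), and *Egln1* was also not called with quantile normalization (0.0658) or with rescaled libraries (0.0588).

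Of 22 further hypoxia response genes only *Stc1* was paired, which encodes the secreted glycoprotein stanniocalcin 1. It was at 13.6, 14.3 and 14.9 CPM in transgenic pools 1, 2 and 3 and at 20.9 and 17.8 CPM in WT pools 1 and 2, a log2 difference of -0.43 (adjusted p = 0.0635 by limma). It was called in 4 of the 17 other settings, with adjusted p-values from 0.0293 to 0.41. Of the tests on the recovered reads, both edgeR tests called it (adjusted p-values of 0.0475 and 0.0293) and DESeq2 did not (0.212). Of the 4 settings, 1 only repeats the quasi-likelihood test with the libraries scaled anew, and gave the same value. The paired genes thus did not move in a single direction, with *Eno2*, *Pgam2* and *Egln1* called higher and *Pdpr* and *Epas1* called lower.

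The genes with the most similar profiles were sought over the 5 libraries, as the smallest root mean square difference between log2 values centred on each gene's mean. Of the 15 nearest genes, 3 for each of the 5, only *Fkbp4*, a co-chaperone of Hsp90, was paired with a symbol. It was second nearest to *Slc2a1* at a distance of 0.014 on the log2 scale, with 242, 257 and 225 CPM in transgenic pools 1, 2 and 3 and 205 and 196 CPM in WT pools 1 and 2. With 5 libraries, such likeness is a description of these pools.

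**Figure D4:**
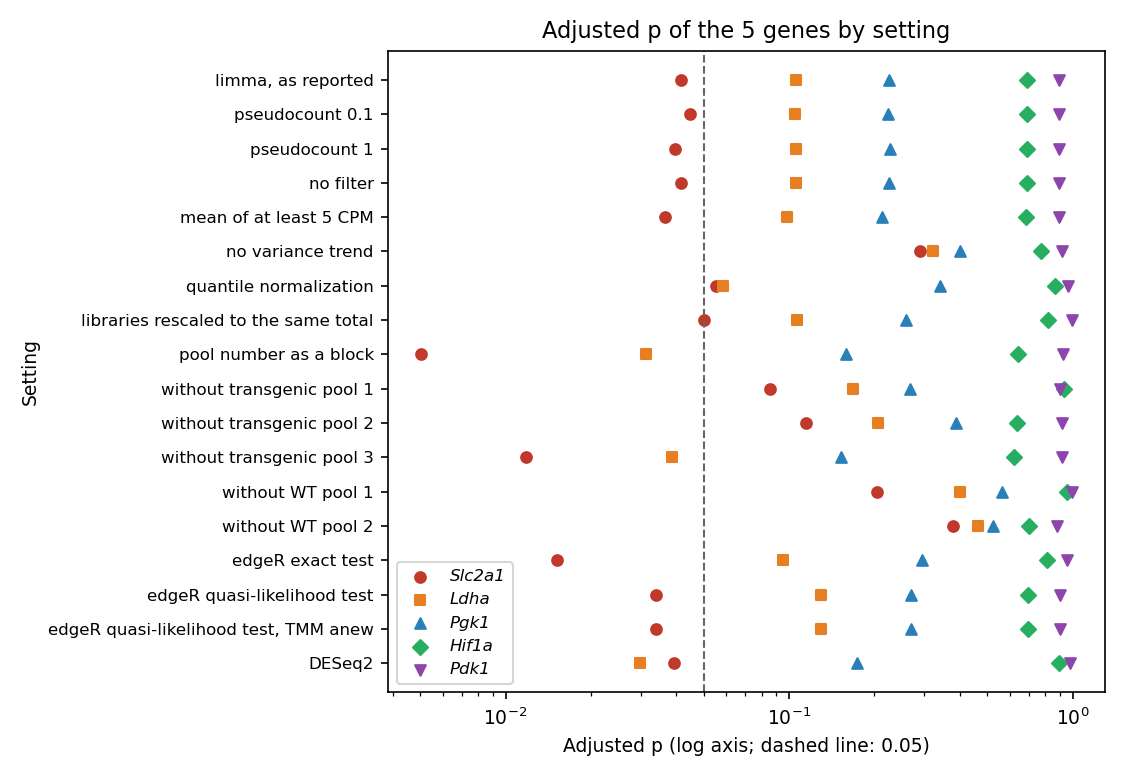
Adjusted p of the 5 genes (horizontal log axis, dashed line at 0.05) under the reported limma comparison and 17 other settings (vertical axis). Some of these settings repeat others. *Slc2a1* lies left of the line in 10 of the 17 and *Ldha* in 3, while *Pgk1*, *Hif1a* and *Pdk1* lie right of it in all 17.

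Across the 17 other settings, the log2 fold change of *Slc2a1* was between 0.21 and 0.32 and that of *Ldha* between 0.14 and 0.23. *Slc2a1* was called in 10 of the 17, with adjusted p-values from 0.00503 to 0.378, and *Ldha* in 3, with adjusted p-values from 0.0299 to 0.466. The direction of *Slc2a1*, *Ldha*, *Pgk1* and *Hif1a* was the same in all 17, and that of *Pdk1* turned in 1 of them. The 17 are not independent, so these counts are not counts of separate checks. Leaving out the filter repeated the reported comparison, because the deposited genes had already passed it. Scaling the libraries anew repeated the edgeR quasi-likelihood test. The block for the pool number gave the same log2 fold changes as leaving out transgenic pool 3.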

How the data were processed

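RNA of E14.5 ventricles and valves was sequenced from 3 transgenic and 2 WT pools. The authors removed adaptors with cutadapt, quantified genes with RSEM over GRCm38 and Ensembl annotation, excluded 1 WT pool, and deposited CPM for 12857 genes, each with at least 1 CPM in at least 2 libraries. The submitters' processing notes also name Bowtie 0.12.9, Picard and edgeR 3.0.8. In every library 100% of values were whole multiples of the worth of 1 read (within 0.001 reads), which gave back whole counts. These counts are called reads here, but they come from RSEM, which estimates them where reads match several copies. The implied library sizes equalled those of TMM scaling of these reads. A count of 0 allows 3 reads, 0.287 to 0.402 CPM, and counting errors cover sampling of reads only.

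limma 3.58.1 (R 4.3.3; lmFit, eBayes with trend) was run on log2(CPM + 0.5) over all genes with at least 1 CPM in at least 2 libraries, without covariates. Alternatives were other pseudocounts and filters, quantile normalization, limma with no variance trend, equal library totals, edgeR 4.0.16 and DESeq2 1.42.0 on the recovered reads, a block for the pool number, and the omission of single pools. With a WT pool left out, the lone WT pool was assumed to vary like the transgenic pools. Ratios were tested with scipy 1.17.1.

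Genes named are the 5 genes, *Bmp2*, the paired members of pathway lists that were called, and the paired genes among the 3 nearest profiles of each. The paired genes that were not called and the paired markers were named after their values were seen. The 5 genes and the lists were chosen with earlier results of these data known. Identifiers were paired with symbols for 410 of the 12857 genes, from the authors' list of 406 changed genes and the rule for the 5 genes. That list's fold changes, p-values and expression values were not used. Promoter motifs were not analysed here. Where no source says that pools were separate litters, p-values rest on the spread between these pools. limma with the trend also draws each gene's variance toward that of genes at a similar level. Its p-values and intervals thus do not rest on the gene's own spread alone.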

Additional observations from a re-analysis of the deposited data

How the results depend on the processing

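*Hif1a*, *Pgk1* and *Pdk1* were not called under any of the 17 alternatives. The difference of *Pdk1* turned sign with libraries rescaled to the same total (-0.000942), and the log2 difference of the ratio of *Hif1a* to *Pdk1* turned to -0.00525 without transgenic pool 1. *Slc2a1* kept its direction but was not called without the variance trend (log2 fold change 0.26, adjusted p = 0.29), with quantile normalization (0.26, adjusted p = 0.0551) or with libraries rescaled to the same total (0.25, adjusted p = 0.0502). *Ldha* was called with DESeq2 (0.19) and with the pool number as a block (0.23, adjusted p = 0.0312). When single pools were omitted, the log2 fold change was 0.21 to 0.32 for *Slc2a1* and 0.16 to 0.23 for *Ldha*, and 0 to 2 of the 5 genes, 0 to 7 of the 8 paired pathway genes and 43 to 464 of all genes were called. All genes called numbered 45 and 43 without WT pools 1 and 2 and 226 without transgenic pool 2, which left 0, 0 and 2 of the paired pathway genes. Of the 5 genes, 0 were called without any one pool other than transgenic pool 3. The same 3 counts were 0, 0 and 10 without the variance trend, 2, 3 and 229 with DESeq2, and 2, 8 and 655 with the pool number as a block. None of the 5 genes was called with quantile normalization or rescaled libraries (0 each). In limma fits that called 0 of the 5 genes, 1 to 3 had an unadjusted p at or under 0.05, as did 11.7% to 17.9% of all genes, against 3 and 17.7% in the reported comparison. The share of higher genes among all genes called was 43.4%, against 33.2% with rescaled libraries (125 higher and 251 lower), 100% without the variance trend, and 80% and 76.7% without WT pools 1 and 2. The pools were separate for 5 to 9 of the 10 ratios with a pool left out (8 without transgenic pool 3 and 9 without WT pool 1), a count that leaving out a pool can only keep or raise, so it says nothing about stability. The cause of these changes was not tested.

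Pools of the same number share only that number in the labels. Their deviations from the group means had correlations across genes of -0.026 and -0.050 for numbers 1 and 2, and the reported comparison has no block. The block leaves transgenic pool 3 without a partner, and under it *Slc2a1* had a log2 fold change of 0.32 (adjusted p = 0.00503). Counting error was below the SD between transgenic pools for *Slc2a1*, *Ldha*, *Pgk1* and *Hif1a* but not for *Pdk1*.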
